A study of Mus musculus with 6 samples.

Results

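The genes described here make cholesterol, sense it, and store or oxidise it. They were taken from a list of 30 by name, keeping those with a mean of at least 1 TPM (a transcript's length-scaled share of the library) over 6 libraries. All 30 passed, of 36333 genes listed in the deposited tables, with means between 6.70 TPM for Hsd17b7 and 173 TPM for Nceh1. Bone marrow derived macrophages of C57BL/6 genotype, grown for 7 days in M-CSF at 10 ng/mL and replated a day earlier at 250000 cells in each well, received 100 µM stearic acid in 3 samples and the vehicle, ethanol, in 3 samples, each for 24 h. Stearic acid is a long-chain saturated fatty acid, and M-CSF is the growth factor that turns marrow precursors into macrophages in culture. Polyadenylated RNA was sequenced with a stranded mRNA kit. Nothing in the labels ties the replicates to different mice or culture wells, so the spread that the p-values rest on may be technical.

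Cells build cholesterol from acetyl-CoA by way of mevalonate, farnesyl diphosphate, squalene and lanosterol. When cholesterol in the endoplasmic reticulum is low, SCAP escorts the membrane-bound transcription factor SREBP2 to the Golgi, where proteases free the part that switches on the synthesis genes. INSIG proteins hold SCAP back when sterols are plentiful. Macrophages take in much cholesterol from lipoproteins and dead cells, and they keep the surplus as esters in lipid droplets, turn it into oxysterols or export it.

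Library depth was estimated from the steps between deposited RPKM values. It was 64.0 to 76.4 M reads or read pairs with stearic acid and 58.1 to 80.8 M with vehicle. At this depth 1 TPM stands for 19.1 to 27.7 reads per kilobase. Of 8 macrophage markers, 5 were lower and 1, Cd68, was higher with stearic acid (limma adjusted p under 0.05), and their summed level was 5576 to 6580 TPM against 6702 to 7307 TPM in vehicle. Of 6 neutrophil markers only S100a8 reached 1 TPM, and the 6 summed to 6.26 to 7.18 TPM with stearic acid against 2.37 to 4.69 TPM with vehicle. No marker of dendritic cells (4), lymphoid cells (5), stromal cells (5) or mast and erythroid cells (5) reached a mean of 1 TPM. The stromal markers summed to 0.951 to 2.49 TPM with stearic acid and 2.00 to 3.26 TPM with vehicle, the dendritic cell markers to 0.691 to 1.017 and 0.962 to 1.06 TPM, and the lymphoid markers to 0.159 to 0.477 and 0.225 to 0.501 TPM. The T cell gene Cd3e, the NK cell gene Nkg7 and 4 of the 5 mast and erythroid genes were listed at 0 in every library. The part of these shifts in the results was not tested, and in bulk RNA fewer cells of a type and less RNA per cell cannot be told apart.

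With stearic acid, 11 of the 30 genes rose, 2 fell and 17 did not pass (limma-trend on log2(TPM + 1), Benjamini-Hochberg adjusted p under 0.05 over 11551 tested genes). Among all tested genes 12.8% were called higher and 11.9% lower, against 36.7% and 6.67% of the 30. The 30 genes were chosen with earlier results of these data known, so these shares only describe them. The risers were Hmgcs1, Mvd, Fdps, Sqle, Lss, Cyp51, Msmo1, Hsd17b7, Sc5d, Insig1 and Tmem97, and the fallers were Lbr and Cyp27a1. The rises were modest, from 0.26 to 0.59 on the log2 scale, which is 19.6% to 50.6% of TPM + 1. The median log2 fold change was 0.08 over the 30 genes and -0.03 over all tested genes. All 3 stearic acid libraries lay above all 3 vehicle libraries in 14 genes (46.7%, against 22.8% of all tested genes), and they lay below in 5 genes (21.7% of all tested genes did).

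The count of 11 moved with the libraries included. It was 2, Mvd and Insig1 each time, when any 1 vehicle library or stearic acid replicate 3 was left out. It was 7 when stearic acid replicate 2 was left out and 12 when stearic acid replicate 1 was. It was 3 when low genes were not filtered. The share of all tested genes called higher moved with it, to between 3.32% and 5.96% in the fits that gave 2, 9.04% in the fit that gave 7, 19.2% in the fit that gave 12 and 3.11% without a filter.

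**Figure D1:**
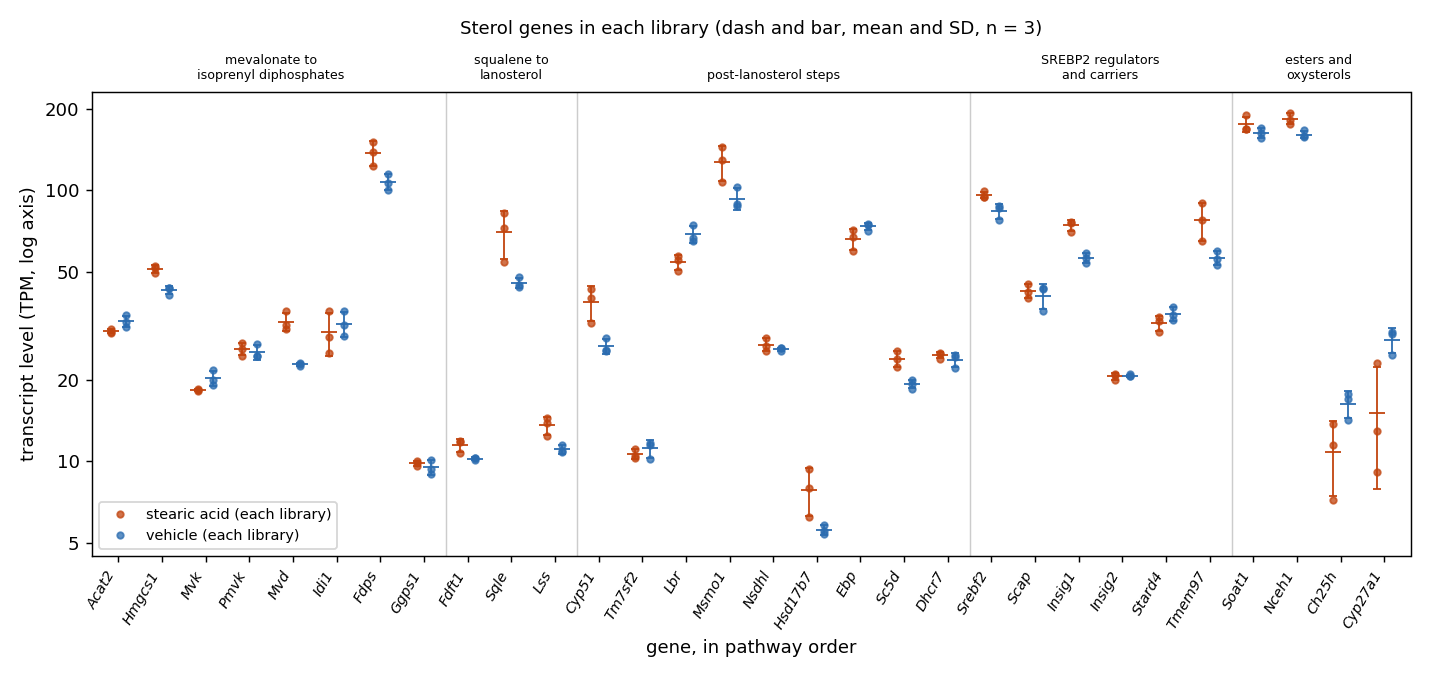
Transcript level in TPM (log axis) of the 30 sterol genes in pathway order, with each library as a point, stearic acid in red and vehicle in blue, and the mean with SD (n = 3 per group) as a dash with bars. Levels run from 5.37 TPM (Hsd17b7 in a vehicle library) to 194 TPM (Nceh1 in a stearic acid library), and the stearic acid points of Mvd, Sqle, Cyp51 and Insig1 lie above those of vehicle without overlap.

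The mevalonate branch makes the isoprenyl diphosphates from which sterols, ubiquinone and protein prenyl groups are built. Of its 8 genes 3 rose and 5 did not pass, too few genes to set against the 12.8% of all tested genes called higher. Mvd, mevalonate diphosphate decarboxylase, which makes isopentenyl diphosphate (NCBI gene 192156, GRCm38 chromosome 8, 122433596 to 122443422), was at 30.8, 35.7 and 31.7 TPM in stearic acid replicates 1 to 3, against 22.7, 22.4 and 23.1 TPM in vehicle replicates 1 to 3. Its groups stood well apart, with means of 32.7 ± 2.62 and 22.7 ± 0.328 TPM (SD, n = 3 each), a log2 fold change of 0.50 (SE 0.08) and a limma adjusted p of 0.0046, the smallest among the 30 genes. Hmgcs1, the cytosolic HMG-CoA synthase that commits acetyl units to the pathway, was at 49.5, 52.7 and 51.9 TPM with stearic acid, against 41.1, 43.5 and 43.7 TPM with vehicle (log2 0.26, SE 0.07, limma adjusted p = 0.025). Fdps, farnesyl diphosphate synthase and the most abundant synthesis enzyme of the list, was at 123, 152 and 138 TPM with stearic acid, against 107, 115 and 100.4 TPM with vehicle (log2 0.35, SE 0.09, limma adjusted p = 0.024). In both genes every stearic acid library lay above every vehicle library.

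The remaining mevalonate genes gave small differences. Mvk and Pmvk, the kinases that act before Mvd, had log2 fold changes of -0.14 (95% interval -0.31 to 0.03) and 0.03 (-0.14 to 0.21). Acat2, the cytosolic thiolase at the head of the pathway, was at 30.2 ± 0.520 TPM with stearic acid and 32.8 ± 1.63 TPM with vehicle (log2 -0.11, limma adjusted p = 0.25). Ggps1, which makes geranylgeranyl diphosphate for protein prenylation, was at 9.80 ± 0.221 TPM with stearic acid and 9.47 ± 0.576 TPM with vehicle. Idi1, the isomerase between Mvd and Fdps, varied most within this branch, at 35.7, 25.2 and 28.7 TPM with stearic acid, against 31.7, 35.8 and 29.0 TPM with vehicle. Its groups overlapped, and its log2 fold change of -0.11 had a 95% interval of -0.40 to 0.18, so a rise as large as those of Mvd and Fdps lay outside that interval.

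**Figure D2:**
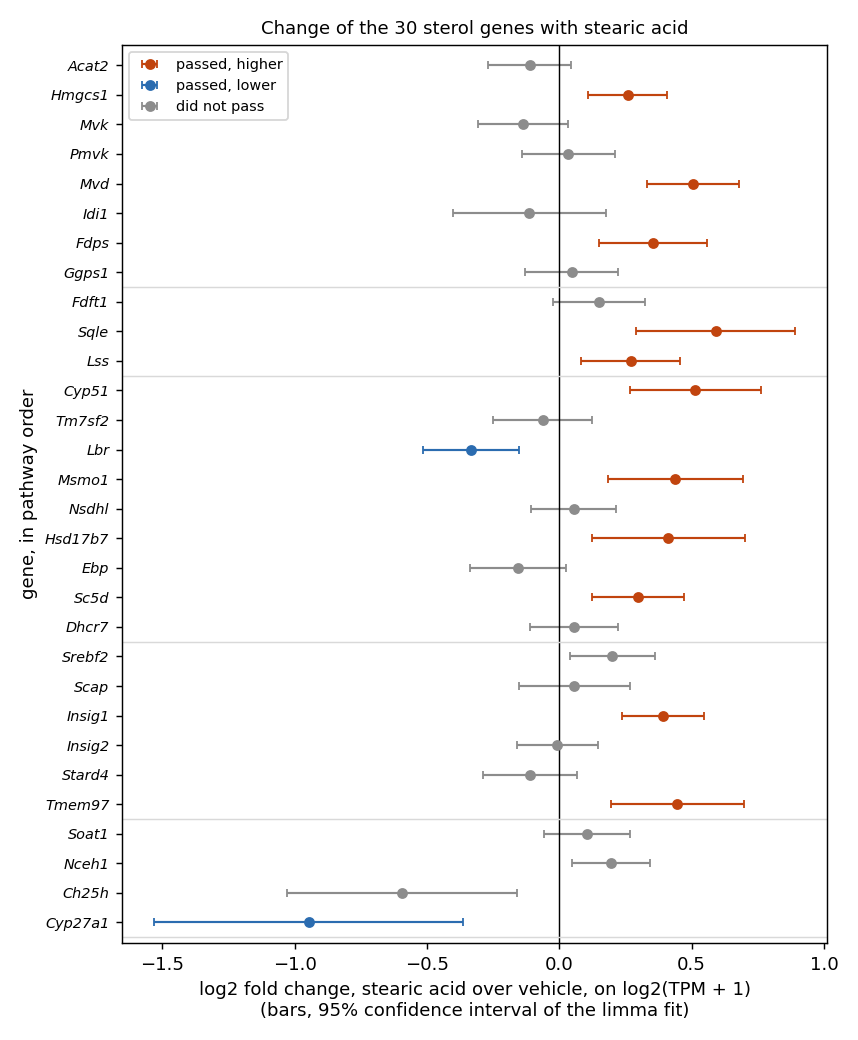
Fitted log2 fold change (stearic acid over vehicle, on log2(TPM + 1)) of the 30 genes in pathway order, with 95% confidence intervals that are not adjusted for the number of genes. The 11 genes that passed as higher are red, the 2 that passed as lower are blue and the 17 that did not pass are grey. Risers and grey genes are mixed along the synthesis steps, with Sqle, Lss and Cyp51 as neighbouring risers.

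Squalene formation and closure to lanosterol commit farnesyl units to sterols. Of these 3 genes 2 rose, again too few to set against the 12.8% of all tested genes. Sqle, squalene epoxidase, an oxygen-dependent step that limits the flow to sterols (NCBI gene 20775, chromosome 15, 59315092 to 59331193), was at 54.6, 82.8 and 72.5 TPM with stearic acid, against 44.7, 47.7 and 44.0 TPM with vehicle. It had the largest rise among the 30 genes (log2 0.59, SE 0.13, limma adjusted p = 0.017), and also a wide spread in the stearic acid group, where replicate 1 was nearest to vehicle. Lss, lanosterol synthase, was at 12.4, 14.4 and 13.8 TPM with stearic acid, against 10.9, 10.8 and 11.5 TPM with vehicle (log2 0.27, SE 0.08, limma adjusted p = 0.042). Fdft1, squalene synthase, missed the threshold (limma adjusted p = 0.17, log2 0.15, SE 0.08), although its libraries did not overlap, at 10.7 to 11.8 TPM with stearic acid against 10.1 to 10.3 TPM with vehicle. Fdft1 overlaps Ctsb in the annotation, which was at 3854 to 4032 TPM with stearic acid and 3253 to 3275 TPM with vehicle, so that its reads may not be separable.

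After lanosterol, a set of demethylases, reductases and isomerases reshapes the sterol into cholesterol. Of these 9 genes 4 rose, 1 fell and 4 did not pass. Among all tested genes 12.8% were called higher and 11.9% lower, and 9 genes are too few for a comparison. Cyp51, which starts by removing a methyl group from lanosterol, was at 32.3, 43.4 and 40.002 TPM with stearic acid, against 25.4, 28.4 and 25.7 TPM with vehicle (log2 0.51, SE 0.11, limma adjusted p = 0.014). Msmo1, the sterol methyl oxidase that removes the remaining methyl groups, was at 108, 144 and 129.99 TPM with stearic acid, against 87.5, 103 and 89.3 TPM with vehicle (log2 0.44, SE 0.11, limma adjusted p = 0.025). In both genes the lowest stearic acid library, replicate 1, lay nearest to the highest vehicle library, replicate 2. Hsd17b7, the keto-reductase that works beside Msmo1, was the least abundant of the 30 genes, at 6.21, 9.35 and 7.93 TPM with stearic acid, against 5.37, 5.82 and 5.50 TPM with vehicle (log2 0.41, SE 0.13, limma adjusted p = 0.044). It did not pass with median-of-ratios scaling. Sc5d, the sterol desaturase near the end of the route, was at 22.3, 25.6 and 23.8 TPM with stearic acid, against 18.5, 19.3 and 19.9 TPM with vehicle (log2 0.30, SE 0.08, limma adjusted p = 0.026).

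Lbr, a nuclear envelope protein that binds lamin B and heterochromatin and also has sterol reductase activity (NCBI gene 98386, chromosome 1, 181815315 to 181842401), fell. It was at 55.4, 50.5 and 57.3 TPM with stearic acid, against 66.9, 65.0 and 74.5 TPM with vehicle (log2 -0.33, SE 0.08, limma adjusted p = 0.021). The call was lost when any 1 vehicle library or stearic acid replicate 3 was left out, with limma adjusted p up to 0.084. It was also lost without a filter on low genes (limma adjusted p = 0.057). Tm7sf2, the other reductase for the same step, was at 10.6 ± 0.448 TPM with stearic acid and 11.1 ± 0.826 TPM with vehicle, and it overlaps Vps51 in the annotation. Nsdhl, the partner dehydrogenase of Msmo1, and Dhcr7, which makes cholesterol in the last reduction, had log2 fold changes of 0.05 (95% interval -0.11 to 0.22) and 0.06 (-0.11 to 0.22). Ebp, the sterol isomerase, was at 66.1 ± 6.08 TPM with stearic acid and 73.7 ± 2.31 TPM with vehicle (log2 -0.16, limma adjusted p = 0.17).

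SREBP2 binds sterol regulatory elements in promoters and usually acts with the factor NF-Y, which binds the CCAAT box. RefSeq promoter windows (GRCm38.p6, 250 bases before to 50 after an annotated start) were found for 26 of the 30 genes. Fdft1, Fdps, Sqle and Stard4 had none in the table used. The letters CCAAT stood on either strand in 23 of 26 genes (88.5%), against 43.1% of 8938 tested genes and 38.8% of 1175 genes called higher. They stood in 9 of 9 risers, 12 of 15 genes that did not pass and both fallers, so their presence did not separate the risers from the rest of the list. The core of the sterol element, TCACNCCA, stood in Hmgcs1, Msmo1 and Srebf2 (11.5% of 26 genes, against 4.53% of the tested genes and 6.21% of 1175 genes called higher). That is 2 of 9 risers, 1 of 15 genes that did not pass and 0 of 2 fallers. These 3 matches are too few to set against the other shares. A longer form of the sterol element that contains the core stood in 0 of 26 and in 4 of the 8938 tested genes. A gene with several windows counted when any of them held the letters (4 of the 30 genes had more than 1), and a match describes the letters only.

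The 250 bases before the start are given 5′ to 3′ for the 3 genes with the sterol element core and for Mvd, Insig1 and Cyp51, which had the 3 smallest p-values among the risers. Capitals mark TCACNCCA and CCAAT matches on either strand, so that ATTGG is CCAAT on the other strand. None of the marked stretches overlap.
Hmgcs1: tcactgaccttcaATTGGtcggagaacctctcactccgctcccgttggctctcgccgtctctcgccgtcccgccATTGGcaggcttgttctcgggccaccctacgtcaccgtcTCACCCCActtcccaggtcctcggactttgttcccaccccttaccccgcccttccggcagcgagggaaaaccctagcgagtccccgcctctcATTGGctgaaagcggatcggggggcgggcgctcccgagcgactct
Msmo1: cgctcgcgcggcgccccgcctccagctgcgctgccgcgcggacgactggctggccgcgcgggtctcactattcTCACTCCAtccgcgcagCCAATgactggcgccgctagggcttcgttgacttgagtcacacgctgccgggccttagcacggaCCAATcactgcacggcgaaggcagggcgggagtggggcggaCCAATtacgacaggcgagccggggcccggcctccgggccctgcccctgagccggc
Srebf2: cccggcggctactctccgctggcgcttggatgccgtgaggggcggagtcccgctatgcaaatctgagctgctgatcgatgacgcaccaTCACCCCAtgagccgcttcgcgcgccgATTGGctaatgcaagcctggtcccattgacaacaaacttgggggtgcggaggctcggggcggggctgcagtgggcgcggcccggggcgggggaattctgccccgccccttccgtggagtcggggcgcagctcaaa
Mvd: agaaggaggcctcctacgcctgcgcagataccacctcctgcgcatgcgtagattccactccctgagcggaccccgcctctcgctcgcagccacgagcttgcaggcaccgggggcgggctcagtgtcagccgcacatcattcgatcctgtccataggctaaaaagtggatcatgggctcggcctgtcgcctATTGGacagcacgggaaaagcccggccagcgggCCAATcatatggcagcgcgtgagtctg
Insig1: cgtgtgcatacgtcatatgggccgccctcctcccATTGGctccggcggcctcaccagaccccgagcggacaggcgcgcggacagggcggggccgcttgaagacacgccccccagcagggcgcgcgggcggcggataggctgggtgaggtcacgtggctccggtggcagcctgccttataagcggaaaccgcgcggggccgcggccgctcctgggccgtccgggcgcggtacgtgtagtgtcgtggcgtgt
Cyp51: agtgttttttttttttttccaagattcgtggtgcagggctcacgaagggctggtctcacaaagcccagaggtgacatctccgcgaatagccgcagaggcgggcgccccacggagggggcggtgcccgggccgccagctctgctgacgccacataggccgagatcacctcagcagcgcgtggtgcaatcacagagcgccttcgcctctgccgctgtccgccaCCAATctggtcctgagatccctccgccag
These stretches lie at chr13:119690101-119690350 on the forward strand, chr8:64733579-64733828 on the reverse strand and chr15:82147019-82147268 on the forward strand. The others lie at chr8:122443423-122443672 on the reverse strand, chr5:28071162-28071411 on the forward strand and chr5:4104698-4104947 on the reverse strand. The core lies 137 to 130 bases before the start of Hmgcs1, 177 to 170 before that of Msmo1 and 162 to 155 before that of Srebf2. Hmgcs1 and Msmo1 each carry 3 CCAAT boxes in this stretch and Mvd carries 2, at 60 to 56 and 27 to 23 bases before its start. Of the genes shown, Srebf2 alone did not pass.

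The regulators split. Insig1, which retains SCAP in the endoplasmic reticulum and is itself an SREBP target (NCBI gene 231070, chromosome 5, 28071412 to 28078662), was at 70.5, 75.8 and 76.7 TPM with stearic acid, against 54.1, 56.3 and 58.8 TPM with vehicle. It rose (log2 0.39, SE 0.07, limma adjusted p = 0.0077), and like Mvd it passed in each fit that left out 1 library (limma adjusted p up to 0.045). Insig2, its paralogue, was at 20.8, 21.0 and 19.9 TPM with stearic acid, against 20.6, 20.9 and 20.6 TPM with vehicle (log2 -0.01, 95% interval -0.16 to 0.15), so a change as large as that of Insig1 lay outside the interval. The ratio of Insig1 to Insig2 was 3.39, 3.603 and 3.85 in stearic acid replicates 1 to 3, against 2.63, 2.69 and 2.86 in vehicle replicates 1 to 3, a ratio chosen after the values were seen.

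Srebf2, which encodes SREBP2, was at 94.9, 94.5 and 99.3 TPM with stearic acid, against 86.2, 77.5 and 87.7 TPM with vehicle. Its libraries did not overlap, but it missed the threshold (limma adjusted p = 0.068, log2 0.20, SE 0.07). It passed in 3 of 12 alternative fits: with RPKM (0.022), with median-of-ratios scaling (0.024) and without stearic acid replicate 1 (0.048). These fits called 18.3%, 15% and 19.2% of all tested genes higher. In the other fits its limma adjusted p reached up to 0.24. Scap, the SREBP escort, was at 42.5 ± 2.53 TPM with stearic acid and 40.9 ± 4.40 TPM with vehicle (log2 0.06, 95% interval -0.15 to 0.27). Tmem97, the sigma-2 receptor, an endoplasmic reticulum protein that binds the cholesterol carrier NPC1, was at 65.2, 89.6 and 77.7 TPM with stearic acid, against 55.8, 59.7 and 53.1 TPM with vehicle (log2 0.45, SE 0.11, limma adjusted p = 0.023). Stard4, a soluble sterol carrier, was at 34.0, 29.95 and 33.1 TPM with stearic acid, against 33.2, 34.6 and 37.2 TPM with vehicle, and its groups overlapped (log2 -0.11, limma adjusted p = 0.32).

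Of the 4 esterification and oxysterol genes 0 passed as higher and 1 as lower, too few genes to set against the 12.8% and 11.9% of all tested genes. Cyp27a1, the mitochondrial sterol hydroxylase that makes oxysterols (NCBI gene 104086, chromosome 1, 74713148 to 74737897), was at 23.0, 9.14 and 12.9 TPM with stearic acid, against 29.6, 24.7 and 30.001 TPM with vehicle. It fell by 0.95 on the log2 scale (SE 0.26, limma adjusted p = 0.030), the largest change among the 30 genes, while stearic acid replicate 1 lay just below the lowest vehicle library. The call was lost in the same fits as that of Lbr, also without a filter, with limma adjusted p up to 0.12. Ch25h, an interferon-inducible sterol hydroxylase of macrophages, was at 7.16, 13.7 and 11.5 TPM with stearic acid, against 17.02, 17.7 and 14.2 TPM with vehicle. The groups did not overlap, and Ch25h narrowly missed the threshold (limma adjusted p = 0.052, log2 -0.59, SE 0.19). It passed in 4 of 12 alternative fits: with a filter at 5 TPM (0.049), with a replicate block (0.016) and on leaving out replicate 1 (0.018) or 2 (0.0015) of stearic acid. In the other fits the limma adjusted p of Ch25h reached up to 0.16. The lowest library of Ch25h was stearic acid replicate 1, whereas the lowest library of Cyp27a1 was stearic acid replicate 2.

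Soat1 and Nceh1 were the most abundant of the 30 genes in both groups. Nceh1, a hydrolase that frees cholesterol from its esters, was at 194, 183 and 177 TPM with stearic acid, against 158, 158 and 166 TPM with vehicle (log2 0.20, SE 0.07, limma adjusted p = 0.056). It did not pass, although the groups did not overlap. It passed in 2 of 12 alternative fits, with RPKM (0.021) and with median-of-ratios scaling (0.029). In the other fits its limma adjusted p reached up to 0.18. Soat1, which esterifies cholesterol in the endoplasmic reticulum, was at 189, 169 and 169 TPM with stearic acid, against 163, 156 and 171 TPM with vehicle (log2 0.10, 95% interval -0.06 to 0.27). The 2 genes differed by less than their spread in each group, at 184 ± 8.65 and 176 ± 11.7 TPM for Nceh1 and Soat1 with stearic acid and 161 ± 4.92 and 163 ± 7.36 TPM with vehicle.

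The stearic acid libraries differed in how far the 11 risers went. Their median rise over the vehicle mean was 0.21, 0.63 and 0.45 on the log2(TPM + 1) scale in replicates 1, 2 and 3, where all 1482 genes called higher had medians of 0.30, 0.56 and 0.43. Replicate 1 was the lowest stearic acid library in 11 of 11 risers (79.1% of all genes called higher), and the order of replicates 1, 3 and 2 from low to high held in 10 of 11 (76.7%). The exception was Insig1, where replicate 3 was highest. The risers therefore followed the library order that most genes called higher showed. The coefficient of variation was 3.22% to 20.4% with stearic acid, against 1.44% to 9.14% with vehicle. It was higher with stearic acid in each of the 11 genes but Hmgcs1 (3.22% with stearic acid, 3.41% with vehicle). The share of all tested genes with this difference was not computed, so it cannot be called particular to the risers. Over all tested genes the stearic acid libraries correlated with each other at 0.988 to 0.996, and the vehicle libraries at 0.996 to 0.998.

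**Figure D3:**
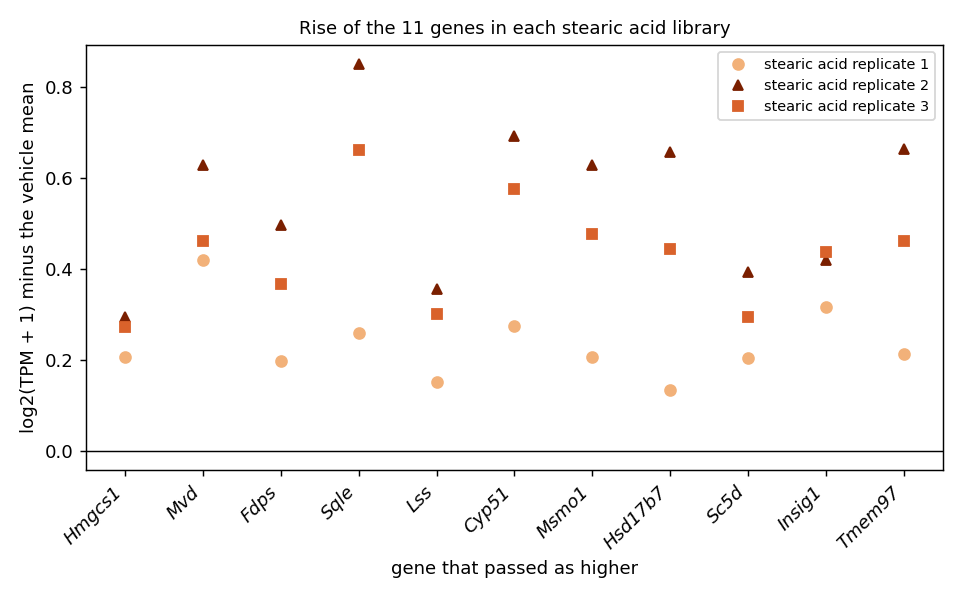
Difference of each stearic acid library from the vehicle mean on the log2(TPM + 1) scale, for the 11 genes that passed as higher, in pathway order. Every point lies above 0, replicate 1 (circles) is lowest in each gene, and the spread is widest for Sqle and narrowest for Hmgcs1.

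Other genes of sterol handling were read beside these from a list of 51, of which 50 were matched by name and 45 were tested. Of these 12 rose and 3 fell, that is 26.7% and 6.67%, against 12.8% and 11.9% of all tested genes. This list was chosen with earlier results of these data known, so its shares only describe it. Por, the reductase that supplies electrons to Cyp51 and Sqle, was at 256, 322 and 271 TPM with stearic acid, against 187, 162 and 170 TPM with vehicle (log2 0.70, SE 0.10, limma adjusted p = 0.0029). Cyb5r3, an electron donor for the desaturase and oxidase steps, and Nus1, of dolichol synthesis, also rose (log2 0.36 and 0.32, limma adjusted p = 0.017 and 0.023). Acat1, the mitochondrial thiolase, fell (log2 -0.28, limma adjusted p = 0.022). Of the 6 fits that left out 1 library, Cyb5r3 passed in 3, and Nus1 and Acat1 passed in 1 each. Without a filter on low genes Cyb5r3 and Nus1 also lost the call.

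Genes of uptake and lysosomal release were also read. The lipoprotein receptors Lrp8 and Scarb1 and the lysosomal exporter Npc1 had higher means, and the receptor Lrp1 had a lower mean. These 4 genes did not pass (limma adjusted p from 0.051 to 0.10) and had an unadjusted p under 0.05. The same held for 1815 of all 11551 tested genes. Mylip, the ubiquitin ligase IDOL that sends lipoprotein receptors to degradation, was at 76.7, 66.2 and 67.5 TPM with stearic acid, against 45.3, 40.3 and 51.2 TPM with vehicle (log2 0.61, SE 0.10, limma adjusted p = 0.0056). Every stearic acid library of Mylip lay above every vehicle library. Lipa, the lysosomal acid lipase that releases cholesterol from taken-up esters, was at 1735 ± 31.6 TPM with stearic acid and 1328 ± 89.8 TPM with vehicle (log2 0.39, SE 0.07, limma adjusted p = 0.0077).

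Srebf1, which encodes SREBP1, was at 61.2, 61.0 and 60.8 TPM with stearic acid, against 44.3, 37.3 and 43.9 TPM with vehicle (log2 0.54, SE 0.08, limma adjusted p = 0.0043). Soat2, the second sterol acyltransferase, was low and had the largest rise of the longer list, at 3.07, 7.44 and 5.75 TPM with stearic acid, against 1.53, 1.36 and 1.24 TPM with vehicle (log2 1.37, SE 0.23, limma adjusted p = 0.0060). Leaving out vehicle replicate 2 ended the call (limma adjusted p = 0.053), and its ratio to Soat1 was 0.0162 to 0.0440 with stearic acid, against 0.00724 to 0.00939 with vehicle. Hsd3b7, a sterol dehydrogenase of bile acid and oxysterol metabolism, was at 115, 142 and 125 TPM with stearic acid, against 86.4, 79.5 and 88.6 TPM with vehicle (log2 0.58, limma adjusted p = 0.0045). The sterol transfer genes Osbpl8 (log2 0.36) and Gramd1b (log2 0.34) also rose. Rnf145, a sterol-responsive ubiquitin ligase, and Cyp39a1, an oxysterol hydroxylase, fell (log2 -0.37 and -0.66). Among 10 genes of SREBP processing and sterol sensing 1 rose and 1 fell, Srebf1 and Rnf145, shares near the 12.8% and 11.9% of all tested genes. The proteases that cleave SREBPs, Mbtps1 and Mbtps2, did not pass (log2 -0.09 and 0.09).

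**Figure D4:**
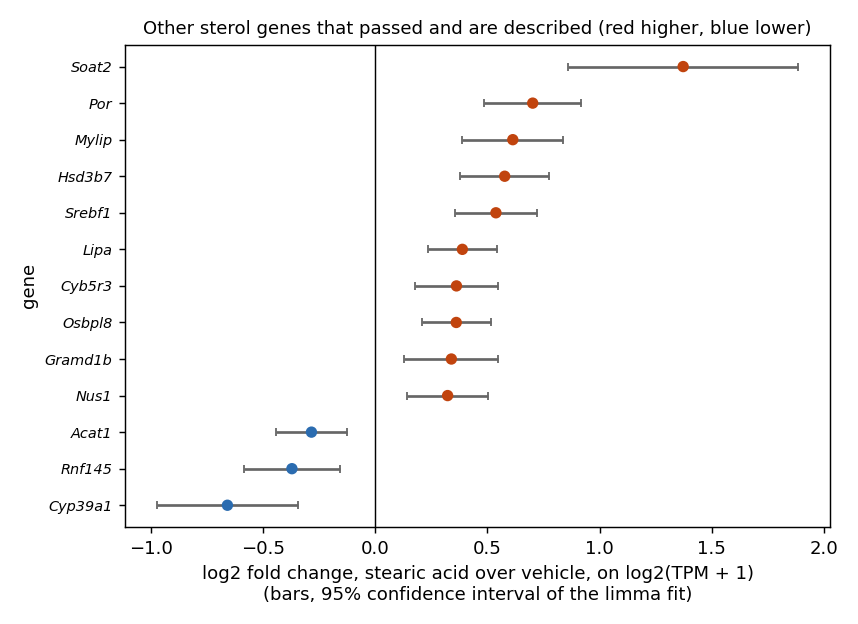
Fitted log2 fold change (stearic acid over vehicle, on log2(TPM + 1)) with 95% confidence intervals, not adjusted for the number of genes, for 13 other sterol genes that passed, sorted by size. The 10 shown that rose (red) run from 0.32 for Nus1 to 1.37 for Soat2, and the 3 that fell (blue) are Acat1, Rnf145 and Cyp39a1.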

How the data were processed

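RNA from 6 libraries was used, 3 with stearic acid and 3 with vehicle. The authors deposited a table per library with TPM (scaled to the same total in each library) and RPKM (scaled for gene length and library depth), per the file headers. The submitters' processing notes name DRAGEN and the builds GRCm38 and mm10; neither the annotation nor the counting rule and its use of strand could be read from the sources used here. Since TPM measures a share, changes are relative to all other transcripts, and a fold change on log2(TPM + 1) understates that of low genes.

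limma 3.58.1 (R 4.3.3) was fitted with an intensity-dependent prior on log2(TPM + 1) over 11551 genes whose mean reached 1 TPM, with treatment as the only term. The code was tried on simulated data with independent noise between libraries, and no result here rests on that trial. Counts were not used here, so no count model was fitted. Depth was read from RPKM steps in genes with 1 annotated transcript (GENCODE M21 lengths). Of the values checked, up to 10 reads, 38.8% to 40.1% were whole reads within a tolerance of 0.02 times the read number. The depth is therefore an estimate, and counts were not rebuilt. Coordinates and promoters are RefSeq's, GRCm38.p6.

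Alternatives were a pseudocount of 0.1, no filter, a filter at 5 TPM, RPKM, median-of-ratios scaling, a replicate block and leaving out each library. The genes and lists were chosen with earlier results of these data known. All 30 genes are accounted for; of the longer list the rule names the 8 passing genes with the smallest p, and its other named genes were chosen after their values were seen. Replicates with the same number were not paired by the labels. Some genes of the longer list are counted but not reported here by name.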

Additional observations from a re-analysis of the deposited data

How the results depend on the processing

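Without a filter on low values, 3 of the 30 genes were called higher, 0 lower (limma; 11 and 2 with the filter), and 1 of the longer list lower; the background fell too, to 3.11% higher and 1.64% lower of 21632 genes. Leaving out 1 library gave 2 to 12 genes higher and 0 to 3 lower among the 30, and 7 to 14 higher and 0 to 6 lower in the longer list. The low counts came without a vehicle library or without stearic acid replicate 3, and the cause was not tested. In those fits 3.32% to 5.96% of all tested genes were called higher and 1.18% to 3.65% lower. Without stearic acid replicate 1 the shares were 19.2% higher and 24.2% lower, and without stearic acid replicate 2 they were 9.04% and 8.15%. With a replicate block the 30 genes gave 11 higher and 3 lower and the longer list 13 higher and 5 lower (12 and 3 without it); Ch25h was the gene gained among the 30 (limma adjusted p = 0.016), and the background was 14.2% higher and 17.3% lower, against 12.8% and 11.9%. Same-numbered libraries correlated at 0.07, 0.29 and 0.04 in their deviations from the group means, and differently numbered ones at -0.32 to 0.27. With 3 libraries per group these values cannot decide whether the numbers are pairs. Since the labels do not pair the libraries, the main fit had no replicate term. RPKM gave 13 genes higher among the 30, with all 11 among them, and median-of-ratios scaling gave 12, with 10 of the 11, while 18.3% and 15% of all genes were called higher in these fits (12.8% with TPM as deposited). The median log2 fold change of the 30 genes stayed between 0.07 and 0.12 over these alternatives, which were added for it after seeing the data. No called gene changed sign. Of 537 single-gene results 94 lost their call and 9 gained one. The 537 include those of the 17 genes that did not pass and so had no call to lose. At 1 TPM a library held an estimated 19.1 to 27.7 reads per kilobase, which sets the counting precision of the lowest genes tested.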
